A study of Arabidopsis thaliana with 6 samples.

Results

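The photosynthetic light reactions of Arabidopsis thaliana were followed through 55 nuclear genes, out of 37051 genes in the deposited count table. They were taken by locus identifier, as the genes of the light-harvesting antennae (6 LHCA and 15 LHCB genes), photosystem I (13 PSA genes), photosystem II (11 PSB genes), the electron carriers (7 genes for the Rieske protein, plastocyanin, ferredoxin and ferredoxin-NADP reductase) and the plastid ATP synthase (3 genes). Messenger RNA had been measured by 3' RNA-seq, in which reads are drawn from the 3' end of each transcript, in 3 libraries of the mutant los2-5 and 3 of the wild type Col-0. Each library was made from whole shoots of 3 plants pooled together, with the replicates of a genotype taken from different pots. Both genotypes were 2 weeks old and had grown on soil at 22 °C in continuous light at 100 µmol m-2 s-1. LOS2 encodes the cytosolic enolase of glycolysis. The labels name the allele without describing its lesion, and they do not say whether the line was backcrossed.

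In the thylakoid membrane, antenna proteins that bind chlorophyll pass light energy to photosystem II, which splits water, and to photosystem I, which reduces ferredoxin. The cytochrome b6f complex and plastocyanin carry electrons between the photosystems, ferredoxin-NADP reductase makes NADPH, and the proton gradient that builds up drives the ATP synthase. Reaction-centre proteins are encoded in the plastid, while the antennae and most small or peripheral subunits are encoded in the nucleus. Many of these subunits have more than 1 nuclear gene.

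Every one of the 55 genes passed the filter on low counts and was tested. In los2-5, 46 of them fell relative to Col-0, 0 rose and 9 were not called, at a Benjamini-Hochberg adjusted p of at most 0.05 in edgeR's quasi-likelihood test over 13952 genes. By the same test 10.6% of all genes tested were lower in los2-5 and 9.92% were higher, or 20.5% in either direction. Transcripts that averaged at least 100 CPM (counts scaled to library size) were more often lower, at 27.7%, with 10.1% higher, and of the 49 photosynthesis genes in that range 43 were lower. The median log2 fold change, los2-5 over Col-0, was -0.52 over the 55 genes and 0.02 over all genes tested. The 3 los2-5 libraries lay below the 3 Col-0 libraries in 47 of the genes and above them in 0, against 18.6% and 18.7% of all genes tested.

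Library totals ran from 3563033 to 4598645 counts. LOS2 itself (AT2G36530) had 120, 115 and 123 CPM in los2-5, against 110, 124 and 106 CPM in Col-0, a log2 fold change of 0.08 ± 0.12 (SE) that was not called (edgeR adjusted p = 0.71), so its 3' tags do not check the genotype labels. Scaling by library size alone shifted the median log2 fold change of all genes upward by 0.12. Under that scaling 38 of the 55 genes were lower and 0 higher, their median was -0.40, and the calls over all genes were 989 lower and 2179 higher, in place of 1477 lower and 1384 higher. Col-0 replicate 3 stood apart in its opposite-strand counts. In 6 genes that lie inside a gene of at least 1000 CPM on the opposite strand it had 230 counts, against 2 to 8 in each of the other 5 libraries. Opposite LHCB1.5 it had 158 counts in AT2G08665, which had 0 to 2 in the others, and these came to 0.885% of the LHCB1.5 count. Opposite PSAG it had 41 counts in AT1G55673, which had 0 in the others, and these came to 0.138% of the PSAG count. Without this library 39 of the 55 genes were called lower and 0 higher, while leaving out other single libraries gave 38 to 45 lower. Annotated genes on the opposite strand overlap 17 of the 55 genes. The labels and notes do not say whether strand was used in counting. AT2G08665 shares 1045 bases with LHCB1.5, which had 11680 to 17846 counts per library. Outside Col-0 replicate 3, reads of LHCB1.5 were thus hardly counted for AT2G08665. Outside that library, counts were also 0 in AT1G55673, AT4G28755, AT3G16130, AT1G52240 and AT1G05207, which lie opposite PSAG, PSAE1, PSAH1, PSAH2 and LHCB6. In Col-0 replicate 3 they had 41, 22, 8, 8 and 21 counts. For the remaining pairs, whether reads were separated was not tested.

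Shoot tissue was represented in both genotypes. The 5 mesophyll genes were the Rubisco small subunits RBCS1A, RBCS2B and RBCS3B, with CA1 and RCA. They summed to 10243 to 12723 CPM in los2-5 and 18011 to 20351 CPM in Col-0, and 5 of the 5 were called lower. All of them are themselves genes of photosynthesis, so they are not a separate measure of mesophyll content. Of 5 epidermis genes 3 were lower (PDF1, KCS10 and CER5), with sums of 3413 to 3894 CPM in los2-5 and 3493 to 4258 CPM in Col-0. ATML1 and LTP1 were not called, and LTP1 made up most of the sum, at a mean of 3122 CPM in los2-5 and 3265 CPM in Col-0. The phloem loading gene SUC2 was lower as well, while AHA3, the other companion cell gene, was not called. The companion cell pair summed to 30.6 to 49.0 CPM in los2-5 and 55.6 to 71.4 CPM in Col-0. Guard cell genes summed to 29.4 to 38.0 CPM in los2-5 and 31.3 to 37.8 CPM in Col-0, and neither of the 2 that were tested was called. Root genes, of which PYK10 was tested and not called, summed to 48.0 to 69.2 CPM in los2-5 and 54.6 to 67.6 CPM in Col-0. Of the other root and flower markers, IRT1 had 0 counts, and COBL9, NRT2.1, AP3, PI, AG and CASP1 had 1, 2, 3, 10, 15 and 27 counts over all 6 libraries. SAG12, a gene of leaf senescence, had 0 counts. SAG13, which also marks senescence, had 22.7, 19.1 and 51.9 CPM in los2-5, against 0.59, 1.47 and 8.59 CPM in Col-0, without passing the edgeR test (adjusted p = 0.088), though DESeq2 and limma-voom called it higher. In these bulk samples, fewer mesophyll cells and less of each transcript per cell cannot be told apart.

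**Figure D1:**
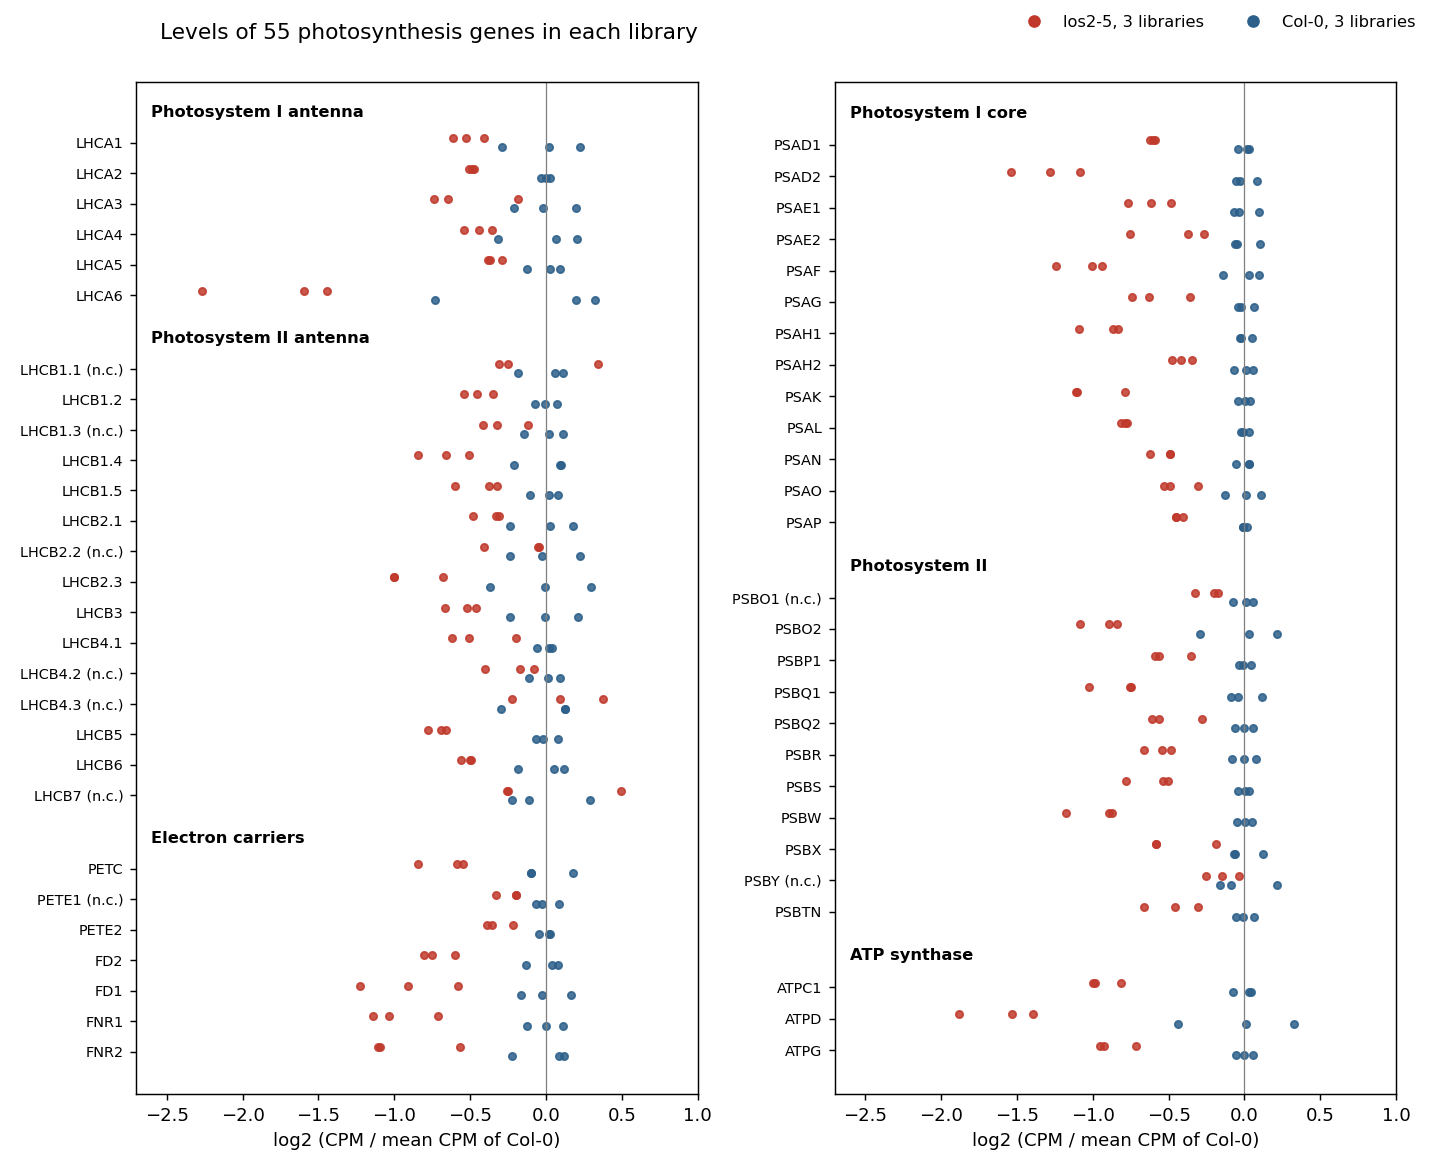
Level of each of the 55 genes in each library, as the log2 of its CPM over the mean CPM of Col-0, with los2-5 libraries in red and Col-0 libraries in blue, and n.c. marking genes that were not called. Red points lie left of blue points in 47 of the 55 genes, and most of the overlaps are among the photosystem II antenna genes.

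Upstream sequences are shown for the LHCB2 copies, of which 2 were called and 1 was not, for PSAF and PSAK, which fell about as far as each other, and for PSBQ2, whose window, like those of PSBQ1 and PSAH2, holds a pair of G-boxes. Each line is the 250 bases before the annotated gene start in the RefSeq annotation of TAIR10.1, read 5' to 3' on the gene's strand. Capitals mark the G-box CACGTG, the I-box GATAAG and the motif CCAATC, each on either strand.
LHCB2.1, chr2:1824481-1824730, minus strand: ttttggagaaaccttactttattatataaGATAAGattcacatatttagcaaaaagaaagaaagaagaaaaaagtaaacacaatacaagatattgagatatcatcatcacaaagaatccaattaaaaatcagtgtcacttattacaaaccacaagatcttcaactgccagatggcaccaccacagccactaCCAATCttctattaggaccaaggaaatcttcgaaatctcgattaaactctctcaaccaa
LHCB2.2, chr2:1800473-1800722, minus strand: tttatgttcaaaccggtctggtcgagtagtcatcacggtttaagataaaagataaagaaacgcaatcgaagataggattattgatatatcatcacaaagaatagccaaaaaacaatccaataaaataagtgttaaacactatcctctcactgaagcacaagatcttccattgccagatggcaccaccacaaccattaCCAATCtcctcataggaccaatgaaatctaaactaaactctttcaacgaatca
LHCB2.3, chr3:10255656-10255905, plus strand: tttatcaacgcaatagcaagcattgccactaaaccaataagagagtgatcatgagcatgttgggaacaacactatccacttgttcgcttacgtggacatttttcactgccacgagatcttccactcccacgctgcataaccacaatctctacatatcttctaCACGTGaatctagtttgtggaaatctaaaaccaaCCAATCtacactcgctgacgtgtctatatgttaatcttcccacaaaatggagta
PSBQ2, chr4:2673244-2673493, minus strand: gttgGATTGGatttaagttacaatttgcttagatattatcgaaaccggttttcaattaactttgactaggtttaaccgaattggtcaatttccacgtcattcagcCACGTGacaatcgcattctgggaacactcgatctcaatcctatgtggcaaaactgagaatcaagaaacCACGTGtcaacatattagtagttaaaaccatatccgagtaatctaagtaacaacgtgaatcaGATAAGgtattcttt
PSAF, chr1:11216142-11216391, minus strand: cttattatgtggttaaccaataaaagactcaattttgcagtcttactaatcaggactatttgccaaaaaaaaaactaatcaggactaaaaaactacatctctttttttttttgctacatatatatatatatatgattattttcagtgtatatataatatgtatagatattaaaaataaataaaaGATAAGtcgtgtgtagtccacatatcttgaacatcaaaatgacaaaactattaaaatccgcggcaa
PSAK, chr1:10721933-10722182, plus strand: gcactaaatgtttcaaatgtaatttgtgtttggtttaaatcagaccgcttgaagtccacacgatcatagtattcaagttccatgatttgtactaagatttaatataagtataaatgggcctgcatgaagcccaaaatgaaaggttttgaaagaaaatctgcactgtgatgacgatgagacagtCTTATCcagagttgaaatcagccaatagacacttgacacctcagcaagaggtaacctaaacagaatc

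The G-box is a core bound by bZIP and bHLH factors of light signalling, and the I-box is a motif named from light-regulated plant genes. The G-box was found before 11 of the 55 genes, against 6.49% of 27443 promoters of the same length. The I-box was before 13 and CCAATC before 14, against 12.3% and 10.2% of all promoters. Other motifs lay nearer to their share among all promoters: the TATA box TATAAA was before 25 of the 55 genes and 47.4% of promoters, the W-box TTGACC before 7 and 12.2%, the CCA1 site AANAATCT before 10 and 13.4%, and the evening element AAAATATCT before 2 and 2.36%. The G-box was present in 10 of the 46 genes that fell and in 1 of the 9 that were not called. Median log2 fold changes were -0.47 for genes with a G-box and -0.55 for genes without.

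In the antenna of photosystem I, 6 of 6 LHCA genes fell, with a median log2 fold change of -0.50. LHCA1 to LHCA4 form the antenna belt, and LHCA5 and LHCA6 link photosystem I to the NDH complex of cyclic electron flow. LHCA6 (AT1G19150) had 8.85, 7.95 and 4.99 CPM in los2-5, against 30.1, 14.5 and 27.6 CPM in Col-0. Its los2-5 libraries were all below those of Col-0, and by the fitted fold change its level was 30.4% of that in Col-0 (log2 fold change -1.72 ± 0.27 SE, edgeR adjusted p = 3.0e-04). No other of the 55 genes had a log2 fold change as low. LHCA2 (AT3G61470) had 3061, 3099 and 3020 CPM in los2-5, against 4307, 4201 and 4383 CPM in Col-0, a log2 fold change of -0.49 ± 0.11 with tight replicates in both genotypes. LHCA5 (AT1G45474) changed least, with 145, 144 and 154 CPM in los2-5, against 200, 191 and 172 CPM in Col-0 (log2 fold change -0.34 ± 0.12, edgeR adjusted p = 0.044), and its call was lost when any 1 library was left out. LHCA1, LHCA3 and LHCA4 fell by 0.51, 0.50 and 0.44 on the log2 scale, and LHCA3 overlapped between the genotypes. The call of LHCA3 was also lost without los2-5 replicate 1 or 2, and that of LHCA4 without Col-0 replicate 3. Leaving out replicate 2 of Col-0 removed the calls of LHCA1, LHCA3, LHCA4 and LHCA5, so that 2 of 6 were lower.

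Of the LHCB genes, which build the photosystem II antenna, 9 of 15 fell and 6 were not called, with a median of -0.43. LHCB1, LHCB2 and LHCB3 make the mobile or trimeric LHCII, while LHCB4, LHCB5 and LHCB6 are the minor antenna proteins CP29, CP26 and CP24. LHCB5 (AT4G10340) had 1038, 1012 and 955 CPM in los2-5, against 1564, 1733 and 1616 CPM in Col-0. The groups were well apart, with a log2 fold change of -0.71 ± 0.11 (edgeR adjusted p = 7.4e-05). LHCB6 and LHCB3 fell by 0.52 and 0.55 on the log2 scale. Without Col-0 replicate 3 the calls of LHCB1.2, LHCB1.5, LHCB2.1 and LHCB4.1 were lost, which left 5 LHCB genes lower.

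Within the LHCII families the call differed from copy to copy. LHCB2.3 (AT3G27690) had 192, 240 and 192 CPM in los2-5, against 298, 472 and 383 CPM in Col-0, and fell by 0.89 on the log2 scale (SE 0.15, edgeR adjusted p = 2.9e-04). Its upstream window is the LHCB2 window with the G-box, which starts 88 bases before the annotated gene start. LHCB2.1 (AT2G05100) had 1448, 1631 and 1607 CPM in los2-5, against 1715, 2286 and 2063 CPM in Col-0, with a log2 fold change of -0.37 ± 0.12 (edgeR adjusted p = 0.030). That call was lost without los2-5 replicate 1 or without replicate 2 or 3 of Col-0, where the adjusted p from edgeR was 0.0916, 0.159 and 0.112. LHCB2.2 (AT2G05070) had 875, 1120 and 1122 CPM in los2-5, against 983, 1356 and 1140 CPM in Col-0, and was not called (log2 fold change -0.16 ± 0.13). The differences between the 3 copies were not tested.

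Among the 5 LHCB1 genes, LHCB1.4 (AT2G34430) changed most, with 16240, 14274 and 18040 CPM in los2-5, against 22086, 27446 and 27319 CPM in Col-0 (log2 fold change -0.66 ± 0.12, edgeR adjusted p = 4.3e-04). LHCB1.2 and LHCB1.5 fell by 0.45 and 0.43, and LHCB1.3 was at -0.28 ± 0.12 without being called. LHCB1.1 (AT1G29920) had 18842, 29588 and 19592 CPM in los2-5, against 20490, 24260 and 25149 CPM in Col-0. Its los2-5 replicate 2 was above the Col-0 libraries and the other 2 los2-5 libraries below them, and the log2 fold change of -0.04 ± 0.15 was not called. LHCB1.1, LHCB1.2 and LHCB1.3 lie next to each other on chromosome 1, and LHCB1.4 and LHCB1.5 on chromosome 2. Between LHCB1 or LHCB2 copies and between the other isoform pairs, the last 300 bases of the annotated transcripts were 45.4% to 58.8% identical over aligned columns, with a longest identical run of 8 to 37 bases. Neither labels nor notes state the read length, so reads that fit more than 1 copy may have been dropped or split. Summed over copies, LHCB1 had 51666 ± 5568 CPM in los2-5 and 65758 ± 5837 CPM in Col-0 (SD, n = 3 each), a log2 fold change of -0.35 ± 0.11 (SE, edgeR adjusted p = 0.034). LHCB2 had 2809 ± 257 CPM in los2-5 and 3565 ± 559 CPM in Col-0, a log2 fold change of -0.34 ± 0.12. Its edgeR adjusted p of 0.0496 was just under the threshold.

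Of the other LHCB genes not called, LHCB4.2 had a log2 fold change of -0.21 ± 0.12, beside its copy LHCB4.1 at -0.43 ± 0.12 (edgeR adjusted p = 0.013). LHCB4.1 (AT5G01530) had 1878, 2031 and 2509 CPM in los2-5, against 2767, 2960 and 2914 CPM in Col-0, and its call was also lost without los2-5 replicate 1. LHCB4.2 (AT3G08940) had 3649, 4573 and 4288 CPM in los2-5, against 4478, 5138 and 4872 CPM in Col-0, and here the groups overlapped. LHCB4.3 and LHCB7 (AT1G76570), both rare transcripts, were not called, with SEs larger than their log2 fold changes. LHCB4.3 (AT2G40100) had 14.0, 9.24 and 11.5 CPM in los2-5, against 11.8, 11.8 and 8.82 CPM in Col-0, and LHCB7 had 7.77, 7.73 and 13.0 CPM in los2-5, against 8.56, 11.3 and 7.91 CPM in Col-0. LHCB4.3 at 0.11 ± 0.22 and LHCB7 at 0.04 ± 0.25 were the 2 genes of the 55 with a positive log2 fold change, and each took the opposite sign when some single libraries were left out.

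**Figure D2:**
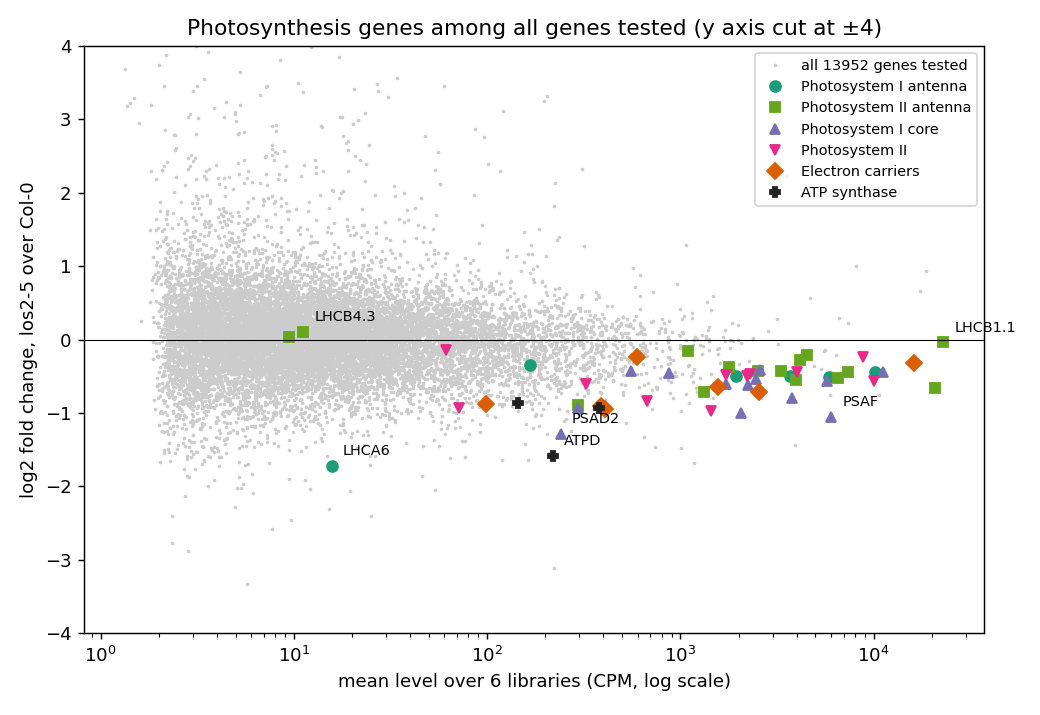
Mean level over the 6 libraries (CPM, log scale) against the log2 fold change, los2-5 over Col-0, for all 13952 genes tested (grey) and the 55 photosynthesis genes by complex. Of the 55 genes 53 lie below 0, and LHCA6, ATPD, PSAD2 and PSAF lie below -1.

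In photosystem I, 13 of 13 PSA genes were lower, with 13 of 13 without overlap between the genotypes and a median log2 fold change of -0.61. PSAF, on the lumenal side, helps to dock plastocyanin, and PSAD and PSAE form the stromal site for ferredoxin. PSAF (AT1G31330) had 4059, 3448 and 4265 CPM in los2-5, against 7401, 8731 and 8348 CPM in Col-0 (log2 fold change -1.06 ± 0.12, edgeR adjusted p = 1.5e-06). PSAD2 (AT1G03130) had 162, 141 and 118 CPM in los2-5, against 330, 335 and 363 CPM in Col-0, and fell by 1.29 on the log2 scale (SE 0.13, edgeR adjusted p = 4.0e-07). The other PSAD gene, PSAD1 (AT4G02770), also fell, with 1354, 1385 and 1375 CPM in los2-5, against 2109, 2023 and 2126 CPM in Col-0 (log2 fold change -0.61 ± 0.11). Called and past a log2 fold change of -1 were 4 of the 55 genes, PSAD2, PSAF, LHCA6 and ATPD, against 2.26% of all genes tested.

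PSAK and PSAG are small membrane subunits beside the LHCA belt, and PSAH, PSAL and PSAO lie on the side where LHCII docks. PSAK fell by 0.99, PSAL by 0.79, PSAG by 0.57 and PSAO by 0.44 on the log2 scale. PSAH1 (AT3G16140) had 217, 182 and 212 CPM in los2-5, against 379, 402 and 381 CPM in Col-0, with a log2 fold change of -0.93 ± 0.12 (edgeR adjusted p = 7.5e-06). PSAH2 (AT1G52230) had 2210, 2127 and 2324 CPM in los2-5, against 2975, 3075 and 2815 CPM in Col-0, and was the PSA gene nearest to no change at -0.41 ± 0.11. PSAE1 fell by 0.62, and PSAE2 by 0.45, a call that was lost without los2-5 replicate 2 (edgeR adjusted p = 0.068) or Col-0 replicate 2 (edgeR adjusted p = 0.062). PSAE2 shares 63 bases with AT2G20270 on the opposite strand, whose count was 11.5% of its own in Col-0 replicate 3. AT2G20270 was counted in every library, with 451, 457 and 458 counts in los2-5 and 366, 437 and 490 in Col-0. PSAN, on the lumenal side, and PSAP, a curvature protein of the thylakoid, fell by 0.53 and 0.43.

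In photosystem II, 9 of 11 genes fell and 2 were not called, with a median of -0.50. PSBO, PSBP and PSBQ are extrinsic proteins around the water-splitting manganese cluster, PSBW, PSBX and PSBY are small membrane subunits, and PSBS triggers the dissipation of excess light. PSBW (AT2G30570) had 1028, 844 and 1042 CPM in los2-5, against 1837, 1906 and 1968 CPM in Col-0, a log2 fold change of -0.97 ± 0.12 (edgeR adjusted p = 3.7e-06). PSBQ1 (AT4G21280) had 515, 424 and 512 CPM in los2-5, against 840, 937 and 813 CPM in Col-0, and fell by 0.84 on the log2 scale. PSBQ2 (AT4G05180) had 1364, 1319 and 1658 CPM in los2-5, against 1930, 2098 and 2012 CPM in Col-0, and fell by 0.48.

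PSBO2 (AT3G50820) had 50.3, 52.2 and 44.1 CPM in los2-5, against 109, 76.2 and 95.7 CPM in Col-0 (log2 fold change -0.93 ± 0.15, edgeR adjusted p = 8.8e-05). PSBO1 (AT5G66570) had 7572, 8271 and 8430 CPM in los2-5, against 9884, 9012 and 9585 CPM in Col-0. Its groups did not overlap, but the log2 fold change of -0.23 ± 0.11 was not called (edgeR adjusted p = 0.13). PSBY (AT1G67740) had 54.0, 58.2 and 63.0 CPM in los2-5, against 75.0, 60.7 and 57.7 CPM in Col-0, with overlapping groups and no call. PSBS, PSBR, PSBP1, PSBTN and PSBX fell by 0.60, 0.56, 0.50, 0.47 and 0.44 on the log2 scale, and the PSBX call was lost without los2-5 replicate 1 or Col-0 replicate 2.

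Of the 7 electron carrier genes, 6 fell and 1 was not called, with a median of -0.72, and the los2-5 libraries were below those of Col-0 in 7 of 7. PETC (AT4G03280), the Rieske iron-sulphur protein of the cytochrome b6f complex, fell by 0.65. Both leaf ferredoxin-NADP reductases were lower: FNR1 (AT5G66190) had 326, 261 and 242 CPM in los2-5, against 575, 490 and 535 CPM in Col-0, and FNR2 (AT1G20020) had 342, 235 and 237 CPM in los2-5, against 434, 550 and 538 CPM in Col-0. Their log2 fold changes were -0.95 ± 0.13 and -0.90 ± 0.14 (edgeR adjusted p = 1.3e-05 and 1.5e-04). FD2 (AT1G60950), the main leaf ferredoxin, had 1889, 1822 and 2101 CPM in los2-5, against 3362, 3275 and 2907 CPM in Col-0, and fell by 0.72. FD1 (AT1G10960) fell by 0.88, with 85.3, 67.9 and 54.7 CPM in los2-5, against 143, 126 and 114 CPM in Col-0. The plastocyanins carry electrons to photosystem I, and 1 of their 2 genes was called. PETE2 (AT1G20340) had 13773, 14110 and 15477 CPM in los2-5, against 18296, 18348 and 17447 CPM in Col-0 (log2 fold change -0.32 ± 0.11, edgeR adjusted p = 0.038), and its call was lost without any 1 of 5 libraries, all but los2-5 replicate 3. PETE1 (AT1G76100) had 563, 516 and 564 CPM in los2-5, against 636, 686 and 620 CPM in Col-0, and was not called at -0.24 ± 0.11.

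The 3 ATP synthase genes among the 55 were all lower, with a median log2 fold change of -0.93. They encode the gamma subunit (ATPC1), which turns within the catalytic head, the delta subunit (ATPD), which holds the head to the stator, and a stator subunit (ATPG). ATPD (AT4G09650) had 125, 114 and 89.2 CPM in los2-5, against 413, 242 and 331 CPM in Col-0, a mean at 33.3% of the Col-0 mean (log2 fold change -1.59 ± 0.18, edgeR adjusted p = 2.4e-05). ATPC1 (AT4G04640) had 284, 251 and 250 CPM in los2-5, against 509, 513 and 473 CPM in Col-0, and fell by 0.93. ATPG (AT4G32260) had 113, 97.5 and 96.0 CPM in los2-5, against 193, 178 and 185 CPM in Col-0, and fell by 0.86. A further gene for the gamma subunit, ATPC2 (AT1G15700), is outside the 55 and was not called, at 0.08 ± 0.27.

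**Figure D3:**
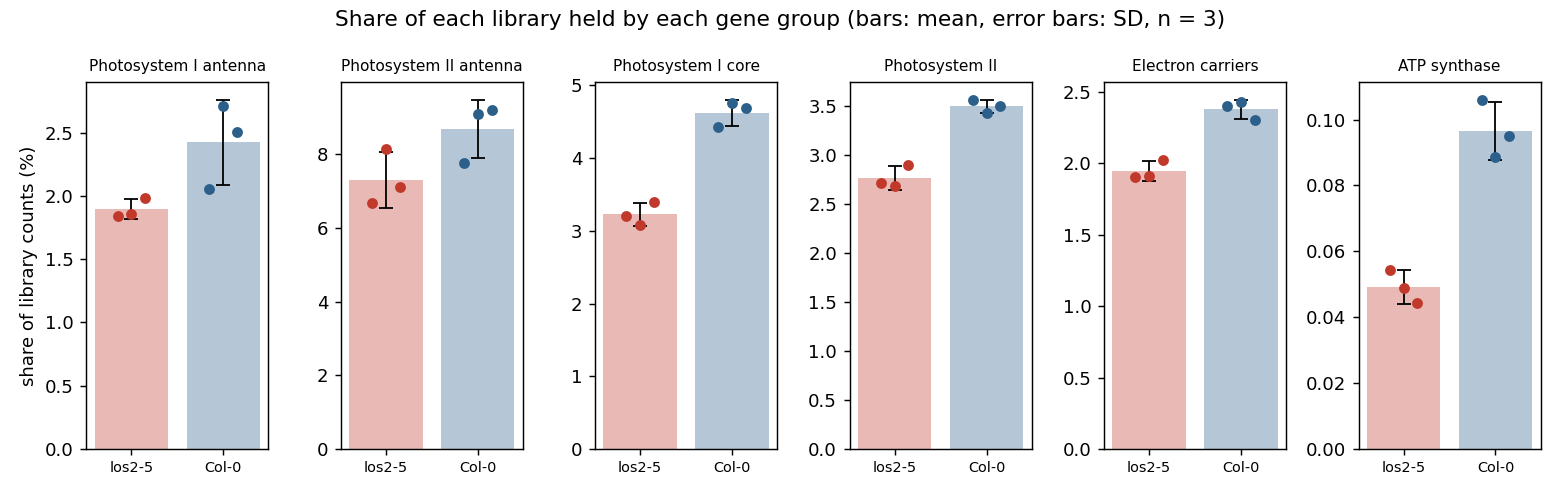
Share of each library's counts (%) held by each gene group, with points for libraries, bars for the mean and error bars for the SD (n = 3 per genotype), each panel with its own axis from 0. The los2-5 libraries lie below those of Col-0 in 5 of the 6 groups, and overlap them in the photosystem II antenna.

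Summed, the 55 genes held 16.4%, 17.7% and 17.5% of the counts in los2-5 libraries, against 20.3%, 22.5% and 22.3% in Col-0 libraries. The mean shares were 17.2% ± 0.715 in los2-5 and 21.7% ± 1.21 in Col-0 (SD, n = 3 each), a ratio of 0.792. By group, the ratio of los2-5 to Col-0 shares was 0.841 for the photosystem II antenna, 0.818 for the electron carriers, 0.790 for photosystem II, 0.783 for the photosystem I antenna, 0.698 for photosystem I and 0.509 for the ATP synthase. Shares are of raw library totals, without TMM scaling, and are weighted towards the genes with most counts. Most counts of the electron carriers came from PETE2, at a log2 fold change of -0.32, while the median of that group was -0.72. A share ratio is thus not the typical change of a group's genes. The photosystem II antenna was the group where the shares overlapped, with 7.31% ± 0.766 in los2-5 and 8.69% ± 0.797 in Col-0, since los2-5 replicate 2 (8.16%) exceeded Col-0 replicate 1 (7.77%).

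Where a protein has a pair of genes, their ratio within each library does not depend on scaling, and 10 such ratios were compared. The levels are not divided by transcript length, and only the change of a ratio is read. In 4 pairs the ratios of the genotypes did not overlap. The log2 ratio PSAD1 to PSAD2 averaged 3.30 ± 0.24 in los2-5 and 2.60 ± 0.06 in Col-0, PSBO1 to PSBO2 averaged 7.36 ± 0.18 in los2-5 and 6.67 ± 0.19 in Col-0, PSAH1 to PSAH2 averaged -3.45 ± 0.10 in los2-5 and -2.93 ± 0.04 in Col-0, and PSBQ1 to PSBQ2 averaged -1.58 ± 0.15 in los2-5 and -1.22 ± 0.07 in Col-0 (SD, n = 3 each). PSAD2, PSBO2, PSAH1 and PSBQ1 had the lower log2 fold change of their pairs. With 3 libraries a genotype, an exact two-sided permutation test cannot give a p below 0.1, which is what these pairs gave (0.25 after Benjamini-Hochberg adjustment over the 10), so none passed. For FNR1 to FNR2 and FD1 to FD2 the differences of the mean log2 ratios were -0.04 and -0.18, with overlapping groups.

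**Figure D4:**
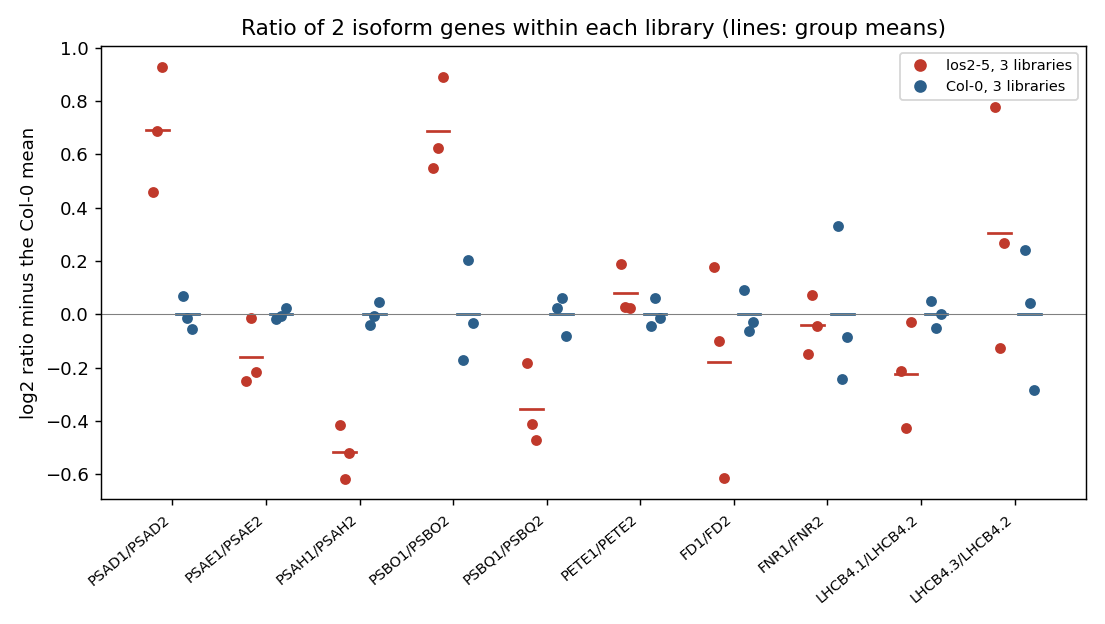
Log2 ratio of a pair of isoform genes in each library, minus the Col-0 mean of that ratio, with red for los2-5, blue for Col-0 and lines for the group means. The genotypes do not overlap for PSAD1/PSAD2, PSAH1/PSAH2, PSBO1/PSBO2 and PSBQ1/PSBQ2.

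Other genes of the light reactions were taken as lists and read in the same edgeR fit, in which 10.6% of all genes tested were lower and 9.92% higher. The NDH complex, which returns electrons from ferredoxin to plastoquinone, had 13 of 18 nuclear genes lower, 0 higher and a median log2 fold change of -0.58. DESeq2 and limma-voom each called 11 of them lower, and leaving out a library gave 10 to 12. PNSL2 (AT1G14150), a lumenal subunit, had 85.1, 52.4 and 58.4 CPM in los2-5, against 143, 124 and 133 CPM in Col-0, and fell by 1.03. PNSB4 and PNSB2 fell by 1.07 and 0.95. Factors that assemble the complexes or target their proteins had 18 of 24 genes lower, 0 higher and a median of -0.56, with 13 to 19 lower when a library was left out. PSB27, an assembly factor of photosystem II, had 164, 144 and 133 CPM in los2-5, against 291, 249 and 264 CPM in Col-0, while LQY1, which acts in photosystem II repair, fell by 0.74 and CGL160, which acts in ATP synthase assembly, fell by 0.82.

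Photoprotection and cyclic flow had 9 of 18 tested genes lower, 1 higher and a median of -0.49, with KEA3 not tested. CURT1A, which curves the grana margins, had 1551, 1234 and 1357 CPM in los2-5, against 2542, 2919 and 2666 CPM in Col-0 (log2 fold change -0.97 ± 0.12, edgeR adjusted p = 4.2e-06), and CURT1C fell by 0.65. STN8, a kinase of photosystem II core proteins, fell by 0.74. ELIP1, an early light-induced protein, was the gene that was higher, with 5.40, 10.7 and 9.77 CPM in los2-5, against 2.95, 6.39 and 2.04 CPM in Col-0 (log2 fold change 1.18 ± 0.36, edgeR adjusted p = 0.026). Its groups overlapped, and the call was lost in 4 of the 6 fits that left out a library.

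Of the regulators of photosynthesis genes, 3 of 26 tested were lower, 1 was higher, 22 were not called and the median was -0.03, with ABI4 not tested. The share lower is close to the 10.6% of all genes tested and the share higher is below their 9.92%, so these counts are not a result about the list. Without Col-0 replicate 3, 1 regulator was lower. GUN4, which binds the porphyrin substrate of Mg-chelatase and acts in plastid signalling, had 28.9, 19.3 and 14.5 CPM in los2-5, against 54.6, 56.0 and 55.9 CPM in Col-0, and fell by 1.41 (SE 0.19, edgeR adjusted p = 1.7e-05). PIF4, a light-responsive bHLH factor, fell by 0.52, SIG2, a sigma factor of the plastid polymerase, by 0.51, and GNL, a GATA factor, was higher at 0.80 ± 0.24, a call lost with DESeq2, without los2-5 replicate 2 and without replicate 1 or 3 of Col-0. GLK1 and GLK2, activators of many antenna and photosystem genes, were not called, at -0.31 ± 0.23 and -0.41 ± 0.18. The genotypes overlapped for GLK1. For GLK2 they did not, with 16.8, 17.8 and 14.5 CPM in los2-5, against 20.7, 25.6 and 19.2 CPM in Col-0 (edgeR adjusted p = 0.11). Of 10 related isoforms outside the 55 genes, 3 fell, 1 rose (RFNR1, the root-type reductase, at 0.82 ± 0.24) and 6 were not called. RFNR1 was not called by DESeq2 or without Col-0 replicate 2. CYTC6A, PETM (AT2G26500), a subunit of the cytochrome b6f complex, and PPL1, a PsbP-like protein, fell by 0.80, 0.51 and 0.42.

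**Figure D5:**
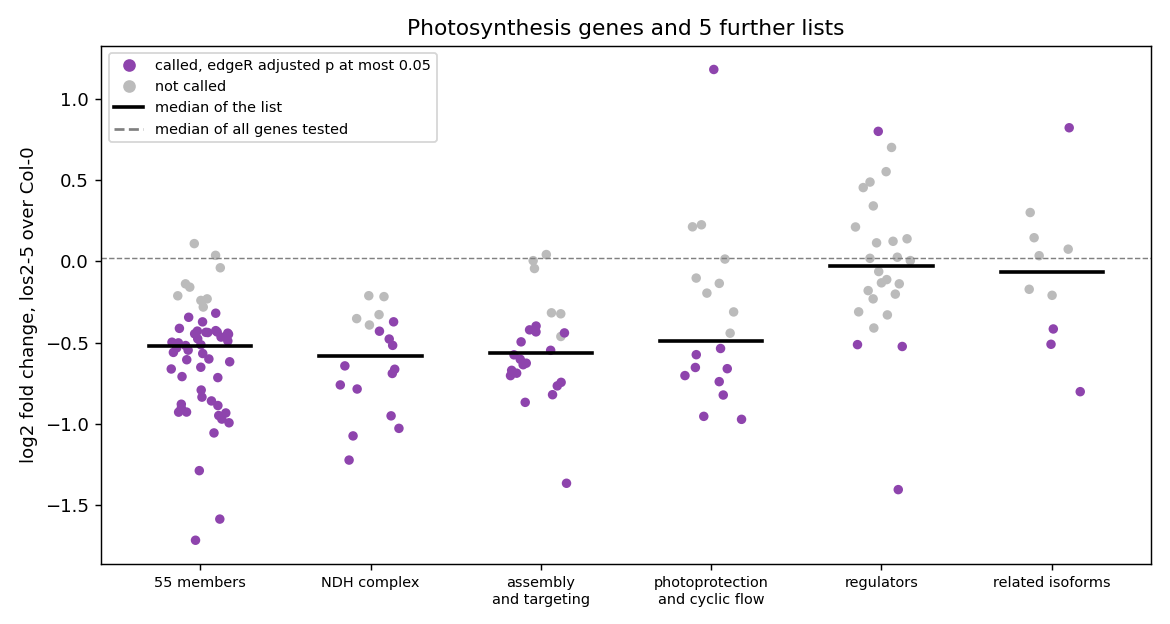
Log2 fold change, los2-5 over Col-0, of the 55 genes and of 5 further lists, with purple points called and grey points not called by edgeR, black lines for list medians and a dashed line for the median of all genes tested (0.02). The medians are -0.52 for the 55 genes, -0.58 for the NDH complex, -0.56 for assembly and targeting, -0.49 for photoprotection and cyclic flow, -0.03 for regulators and -0.07 for related isoforms.

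The mesophyll genes listed above, themselves genes of photosynthesis, had a median log2 fold change of -0.73 (from -0.79 to -0.58), beside -0.52 for the 55 genes. The part of tissue make-up in the lower photosynthesis transcripts was not tested. DESeq2 and limma-voom each called 46 of the 55 genes lower and 0 higher, against 8.03% lower and 6.71% higher of all genes tested with DESeq2, and 10.5% lower and 9.23% higher with limma-voom.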

How the data were processed

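Raw read counts per gene, deposited by the authors for 37051 genes in 6 libraries, were taken unchanged. Per the submitters' processing notes, STAR, edgeR and the build TAIR10 were used, with no versions listed. Neither counting tool nor strand setting is stated there. Replicates are pools of plants from different pots, per the labels' protocols. Genes were kept by filterByExpr (minimum count 10, total 15), which left 13952 genes with 99.5% of the counts. After TMM scaling, edgeR 4.0.16 in R 4.3.3 was run (glmQLFit, robust, and glmQLFTest, genotype as the sole term), with Benjamini-Hochberg adjustment over all genes kept and calls at 0.05. A fold change is always los2-5 over Col-0, and its SE is the absolute log2 fold change over the square root of F. CPM use TMM-scaled library sizes and are not divided by length, and no test compared levels between genes. The biological coefficient of variation was 0.125, and library totals of 3563033 to 4598645 counts set the precision of rare transcripts.

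Isoform ratios used a prior count of 2 and exact permutation tests. Sequences were read from RefSeq TAIR10.1 through locus tags, which matched 55 of 55 genes. The deposited table gives no coordinates. Alternatives were other scalings and filters, DESeq2 1.42.0, limma 3.58.1 (voom), a replicate block, summed LHCB1 and LHCB2 copies and leaving out each library. In each complex the 2 called genes with the smallest p, the gene nearest to no change and isoform pairs were named, and in each list up to 3 called genes with the smallest p. Further genes were named after their values were seen. The members and lists were chosen with earlier results of these data known. Scripts were tested on simulated data, where 17.9% of 1.5-fold, 52.2% of 2-fold and 95.5% of 4-fold changes were called. Of the 116 calls there, 6 were false. A gene that was not called is therefore not shown to be unchanged.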

Additional observations from a re-analysis of the deposited data

How the results depend on the processing

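The number of the 55 genes called lower was 46 with RLE scaling, with scaling factors set without these genes, with a filter of 5 CPM in 3 libraries, with DESeq2 and with limma-voom. It was 45 with no filter, 38 with library size alone and 38 to 45 when a library was left out, and 0 were called higher in any of the 15 alternatives run. With the 8 LHCB1 and LHCB2 copies replaced by 2 sums, 43 of 49 features were lower. Replicate numbers did not pair the samples, with correlations of same-numbered deviations of 0.051, -0.00068 and -0.048, and with the replicate block 45 genes were lower. Of the 46 genes, 35 were called in every alternative that tested them singly and 11 lost the call in at least 1. Log2 fold changes near 0 changed sign. LHCB1.1 was at 0.0873 with library size alone and ran from -0.28 to 0.0745 over the fits that left out a library. Over the same fits LHCB4.3 ran from -0.053 to 0.25 and LHCB7 from -0.26 to 0.20. Ratio differences ran from -0.16 to 0.12 for FNR1 to FNR2 and from -0.36 to 0.0384 for FD1 to FD2. Over the alternatives, regulators called lower numbered 1 to 3 and called higher 0 to 3. The cause of these changes was not tested. Low counts limit the precision of LHCA6, LHCB4.3 and LHCB7.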
